A study of Mus musculus with 9 samples.

Results

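TWIST1 chromatin immunoprecipitation peaks that recurred in every Twist1-expressing library and lay well inside protein-coding genes were examined: 3609 regions of 10168 reproducible regions on chromosomes 1 to 19 (35.5%). To choose them, peaks of the 4 libraries were joined wherever they overlapped by 1 bp or more, and those joined regions were kept that all 4 supported and that no control peak touched. The position of a region is the mean over the 4 libraries of the summit of its most significant peak. A region is called deep when this position falls inside a protein-coding gene body and more than 1 kb from either end of any protein-coding gene, on mm10 with RefSeq gene models. The other 2 classes are gene-end regions (3173, within 1 kb of an end) and intergenic regions (3386). The members were thus chosen by peak recurrence and summit position, which are given as descriptions, with no test.

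ChIP-seq was made from mouse embryonic stem cells (A2loxcre, labelled C57BL/6) aggregated into embryoid bodies and differentiated towards neuroepithelium for 3 days. Cells of the expressing group, labelled Twist1-OE, had no functional endogenous Twist1 (Twist1-/-) and made Flag-tagged TWIST1 from a doxycycline-inducible cassette, switched on for 16 h. Control cells, labelled Twist1-KO, were Twist1-/- without the cassette and also received doxycycline, and the same TWIST1 antibody was used. There were 9 libraries: 4 OE ChIP, numbered 1 to 4, 2 KO ChIP, numbered 2 and 3, 1 KO input and 2 OE inputs, of which the OE inputs were not analysed here. Both groups therefore lack the natural gene, and all TWIST1 in the OE cells came from the induced transgene. The labels do not say how many clones were used, and peak lists hold no expression values with which to check the cell type.

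TWIST1 is a basic helix-loop-helix (bHLH) transcription factor that pairs with E-proteins or with other bHLH factors and contacts the E-box, CANNTG. It is best known for its work in neural crest cells, cranial mesenchyme and epithelial-mesenchymal transition. Sites inside gene bodies can be enhancers of the host gene or of a distant gene, or alternative promoters of the host, and position alone does not tell these apart. Host gene is used here for the gene that contains a region and does not mean a target.

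The OE libraries formed 2 sets by list length and background. Their lists held 22388, 106821, 87441 and 14160 peaks for libraries 1 to 4, against 104 and 71 for the KO libraries and 1774 for the KO input. The commonest background, in fragments at a position, was 1.00 for library 1, 5.38 for library 2, 5.29 for library 3 and 1.2 for library 4. The labels give no batch, the sets are not groups of the study, and they appear side by side wherever they differ. Totals of reads were not in the sources, so depth is described by these values. The design text speaks of biological replicate experiments.

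Sequence at the positions could be read for 221 deep regions, those whose position fell in a RefSeq promoter window of GRCm38.p6 (250 bp before to 50 bp after a start), which number 250 windows because genes have several starts. In 202 of these regions the start belonged to the host gene itself. Among the windows a spaced pair of E-boxes recurred, CANNTG and CANNTG with 5 bp between them, and its centre was within 15 bp of the position in the 4 regions shown first. In the other 4 regions that hold it the centre was 39.5 to 225 bp away, and Hif1a is shown from among these for contrast. The last is the hairpin of the microRNA gene Mir6406 inside Ntn1, shown because the position of that strong region falls on such a pair. The DNA windows are parts of promoters, capitals mark the E-boxes of the pair (in the hairpin, every CANNUG), each sequence runs 5′ to 3′ on the named strand.
Fth1 chr19:9982396-9982481 plus strand: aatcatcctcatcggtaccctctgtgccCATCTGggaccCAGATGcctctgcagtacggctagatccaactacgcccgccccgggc
Lax1 chr1:133690181-133690280 minus strand: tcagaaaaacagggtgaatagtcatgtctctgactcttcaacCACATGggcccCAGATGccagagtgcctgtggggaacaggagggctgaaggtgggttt
Ank2 chr3:126998558-126998657 minus strand: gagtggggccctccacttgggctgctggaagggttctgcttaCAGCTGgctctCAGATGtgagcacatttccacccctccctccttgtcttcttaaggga
Lrtm2 chr6:119330767-119330855 minus strand: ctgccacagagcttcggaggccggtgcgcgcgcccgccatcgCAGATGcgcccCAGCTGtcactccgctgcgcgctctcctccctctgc
Hif1a chr12:73907713-73907812 plus strand: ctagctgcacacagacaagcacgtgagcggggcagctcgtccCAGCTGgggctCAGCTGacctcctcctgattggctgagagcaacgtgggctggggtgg
Mir6406 hairpin chr11:68220892-68221011 plus strand: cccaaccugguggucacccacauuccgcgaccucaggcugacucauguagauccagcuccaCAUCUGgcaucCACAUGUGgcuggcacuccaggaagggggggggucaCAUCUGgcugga

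The regions behind these sequences differed in strength and in their pattern over libraries. Fold enrichment is the authors' ratio of fragments at a summit to the local background, with 1 added to each. The added 1 lowers folds more where the background is low. The commonest background was 1.00 and 1.2 in libraries 1 and 4, against 5.38 and 5.29 in libraries 2 and 3. In Fth1, a ferritin subunit gene, folds were 44.9, 139, 88.5 and 39.95 in libraries 1 to 4, and the centre of the pair lay 10.5 bp from the position. In Lax1, which encodes a lymphocyte adaptor, they were 20.5, 130, 87.9 and 15.9 with the centre 13.2 bp away. In Ank2, the ankyrin-B gene, they were 15.0, 57.8, 59.3 and 9.99 with the centre 6 bp away. Lrtm2, which encodes a leucine-rich repeat membrane protein and here overlaps Cacna2d4, gave 13.97, 21.2, 18.6 and 10.9 with the centre 11 bp away. In these 4 regions libraries 2 and 3 had the higher folds. In Hif1a, the hypoxia factor gene, the order was the opposite: 37.9 and 26.8 in libraries 1 and 4 against 7.37 and 11.9 in libraries 2 and 3, with the pair 79.2 bp from the position. The order did not follow the distance in every region. Of the other 3 regions with a distant pair, Tmem184a (52 bp) had 10.9, 30.1, 38.6 and 7.07, higher in libraries 2 and 3, a region of Aopep (39.5 bp) had 16.0, 21.3, 15.9 and 8.23, and Gpr12 (225 bp) had 26.5, 8.62, 8.58 and 12.3. At Mir6406 the folds were 73.4, 260, 232 and 52.2, the centre of the pair CAUCUGgcaucCACAUG was 1 bp from the position, and the region (chr11:68219885-68221728) lay 11.6 kb from the nearer end of Ntn1, the netrin guidance cue gene.

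The single E-box was about as common in these windows as in promoters at large. CANNTG, searched on both strands, was in 74.4% of the 250 windows and in 72.3% of all 32851 promoters in the table. CAGCTG was in 24.8% against 16.3%, CACCTG or CAGGTG in 34.8% against 20.2%, CACGTG in 8.80% against 7.15%, and CATCTG or CAGATG in 15.2% against 17.2%. The spaced pair (CANNTG, any 5 bases, CANNTG), whose parts also count as single E-boxes, was in 9 windows of 8 regions, 3.6% against 0.767%. Over gaps of 0 to 15 bp the gap of 5 bp had the most windows, and the next, 8 bp, had 5. The windows at deep positions held 70.0% G and C, against 52.7% in all promoters, so letter counts are not on an equal base composition. The 1230 windows holding gene-end positions had 70.3% G and C and the spaced pair in 1.30%. Single forms in those windows were CAGCTG in 21.3%, CACCTG or CAGGTG in 28.9% and CATCTG or CAGATG in 14.9%. CACGTG was in 12.9% of them, more than at deep positions.

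Windows whose region was strong in libraries 2 and 3 held most E-box forms more often. Of the 85 windows with a mean within-list percentile of fold of at least 80 in those libraries, 30.6% held CATCTG or CAGATG, 36.5% CAGCTG and 8.24% the spaced pair. Of the other 165, 7.27%, 18.8% and 1.21% did. CACGTG went the other way, with 7.06% and 9.70%. Their G and C content was 64.7% and 72.0%. The limit of 80 was chosen after seeing the data, a match is a description of letters and not a bound site, and the windows cover only the regions that lie at a start.

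Deep did not always mean away from a start. Of the 3609 regions, 492 (13.6%) had an alternative RefSeq start of the host gene within 1 kb, 40 (1.11%) only a start of a non-coding or other gene, and 2313 (64.1%) no start. The remaining 764 (21.2%) lay in genes with no entry in the promoter table, 123 of them on chromosome 18. Thus 17.3% of the 2845 regions that could be judged were at a start of their own gene. No start means none in that table, which holds 32851 promoters for 27025 genes and may lack other starts. Examples, chosen after their values were seen, are the strongest region at such a start, in Smarcd2, a BAF chromatin remodelling subunit gene (505 bp away, folds 146, 430, 494 and 116), and those in the BCL2-modifying factor gene Bmf (58 bp; 103, 168, 215 and 76.7), the LIM protein gene Fhl3 (275 bp; 104, 163, 155 and 63.1) and Gse1 (1 bp; 86.3, 76.2, 116 and 65.4). In Gse1 the outermost of the 4 summits were 515 bp apart, so the 1 bp is the distance of their mean. In Smarcd2, Bmf and Fhl3 they were 13, 9 and 40 bp apart. The name of the class therefore holds for position relative to the outer ends of genes and not for distance from every start.

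Regions at a start and regions at none had different strength patterns in the 2 library sets. A region's percentile is the rank of its fold within the library's own peak list. Among the 492 regions at a start the median percentile was 79.0, 66.4, 67.3 and 67.7 in libraries 1 to 4, and among the 2313 at none it was 70.3, 96.2, 95.3 and 51.8. Regions at a start thus stood higher in libraries 1 and 4, by 8.73 and 15.9 points, and lower in libraries 2 and 3, by 29.7 and 28.0 points. The mean difference was −8.28 ± 24.0 points (SD, n = 4; exact sign-flip permutation, two-sided, p = 0.500 and 0.750 after Benjamini-Hochberg adjustment over 6 comparisons). With 4 libraries this test cannot give a p under 0.125. Within the sets the mean difference was 12.3 points in libraries 1 and 4 and −28.9 in libraries 2 and 3. With all lists shortened to equal length, a setting chosen after seeing the data, the differences in libraries 2 and 3 were −3.18 and −3.25. Those in libraries 1 and 4 were then 9.98 and 17.4. Percentiles were still ranks within the full lists. Shortening kept only the strongest peaks of the long lists of libraries 2 and 3, so wide differences there could not appear. Of the 2181 deep regions left in that setting, 3.94% were at a start. The mean over all was −13.9 without library 1, −1.62 without library 2 and −1.93 without library 3.

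The fragments at the summits showed the same split. The median height was 37, 41, 42 and 28.5 fragments at a start in libraries 1 to 4, and 28, 191, 165 and 21 at none. The median background was the same in both subsets within each library. The gap between the library sets was therefore wide at regions away from starts and narrow at starts. Library depth, background and list length differ between the sets, and their part in these differences was not tested.

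**Figure D1:**
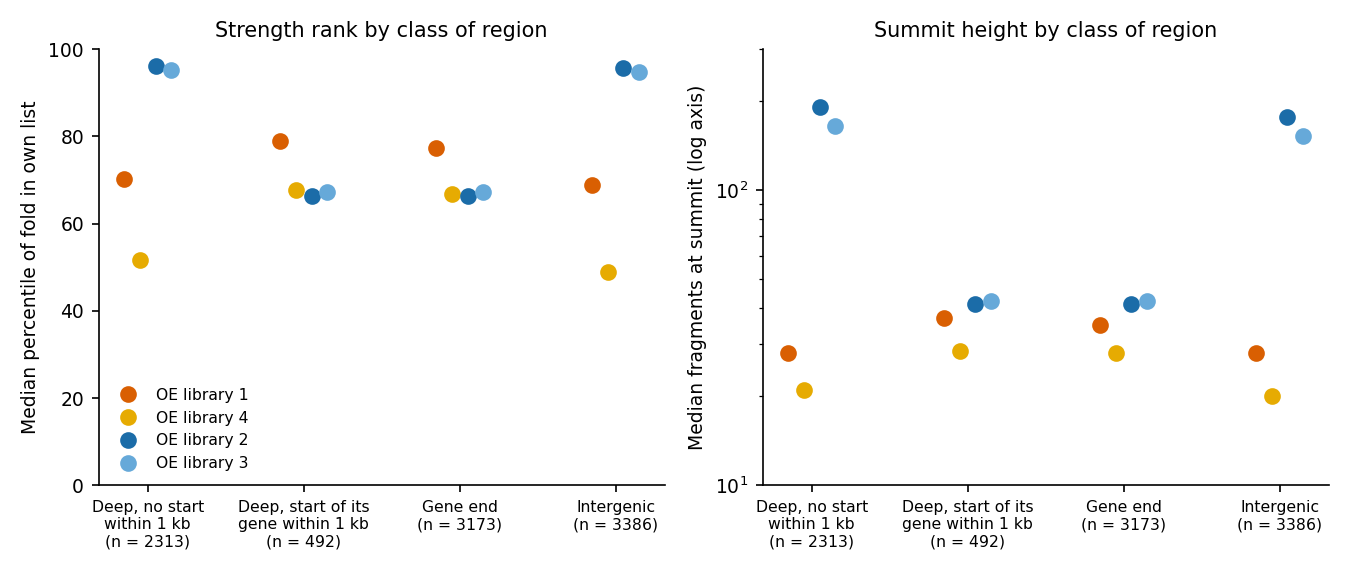
Median percentile of fold within each library's own list (left, 0 to 100) and median number of fragments at the summit (right, log axis) for 4 classes of reproducible regions, with 1 point per OE library. Deep regions with no start nearby sit beside intergenic regions, at 96.2 and 95.3 in libraries 2 and 3, and deep regions at a start of their gene sit beside gene-end regions, at 66.4 and 67.3.

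Against the other classes, deep regions as a whole lay between gene-end and intergenic ones. Their median percentiles were 72.6, 94.8, 94.0 and 54.5 in libraries 1 to 4, against 77.5, 66.4, 67.3 and 66.8 for gene-end regions and 69.0, 95.7, 94.9 and 48.9 for intergenic regions. Compared with gene-end regions, deep regions were lower in libraries 1 and 4 and higher in 2 and 3, with a mean difference of 9.46 ± 21.1 points (SD, n = 4; exact permutation p = 0.500, adjusted p = 0.750) and set means of −8.60 and 27.5. The mean was 4.01 without library 2 and 4.11 without library 3. Compared with intergenic regions they differed by 3.63, −0.929, −0.896 and 5.55 points, a mean of 1.84 ± 3.27 (SD, n = 4; exact permutation p = 0.500, adjusted p = 0.750), and 0.270 without library 4. Peaks in deep regions had median widths of 533, 938, 994 and 436 bp and were wider than intergenic ones in all 4 libraries, by 34.4 ± 18.8 bp (SD, n = 4; exact permutation p = 0.125, the smallest possible, adjusted p = 0.750). On lists shortened to equal length these differences were −5, 18, 31 and 8 bp in libraries 1 to 4. Against gene-end regions the width difference was 27.75 ± 124 bp (SD, n = 4; exact permutation p = 0.750), negative in libraries 1 and 4 and positive in 2 and 3. With all lists shortened to equal length it was negative in all 4, by −111, −78, −161 and −80 bp. Widths at a start and at none differed by 30.25 ± 122 bp (SD, n = 4; exact permutation p = 0.625), and with lists of equal length starts were wider in all 4, by 162.5, 196, 415.5 and 161.5 bp. Equal length was applied to widths after seeing the data. None of the 6 comparisons passed the test.

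Of all deep regions, 28.6% were among the strongest 25% of all reproducible regions in library 2 and again in library 3. Of regions at a start 22 (4.47%) were in that part, and of those at none 765 (33.1%). The shares were 4.66% for gene-end and 30.7% for intergenic regions. For the strongest 25% in libraries 1 and 4 the order ran the other way: 24.8% at a start, 19.7% at none, 22.7% for gene-end regions, 17.5% for intergenic regions and 20.8% over all deep regions.

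Summit positions followed the same division. Over all deep regions the outermost of the 4 summits were a median of 64 bp apart, and in 61.4% all 4 lay within 100 bp. At regions with no start nearby the median was 50 bp and the share 70.4%, as against 317 bp and 20.7% at a start. Gene-end regions gave 286 bp and 23.4%, and intergenic regions 50 bp and 71.4%. At a start, libraries of one set still placed their summits close together, a median of 27 bp apart for libraries 1 and 4 and 31 bp for 2 and 3, while the 4 pairs across the sets were 210.5 to 234.5 bp apart. Away from starts the pairs across the sets were 24 to 28 bp apart. For a region at a start the position, a mean over both sets, can thus lie between 2 summits, and the sequences above were compared with that mean.

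**Figure D2:**
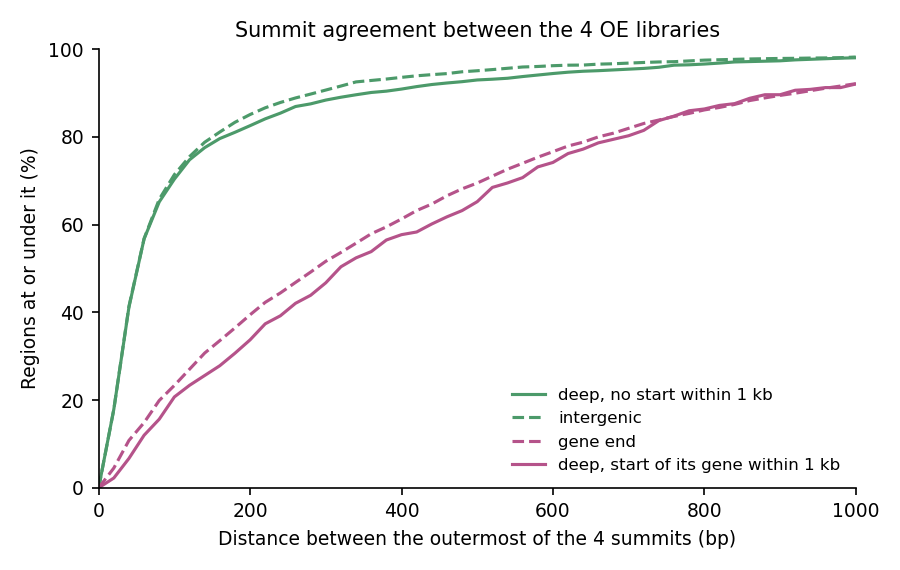
Cumulative share of regions (vertical axis, %) whose 4 summits, 1 per OE library, lie within a given distance in bp (horizontal axis), for deep regions with and without a start of their gene within 1 kb and for the other 2 classes. The curves form 2 pairs: at 100 bp deep regions away from starts reach 70.4% and intergenic regions 71.4%, and deep regions at starts reach 20.7% and gene-end regions 23.4%.

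Fold values ranked the members alike within a set and less alike across sets. The 3609 regions share libraries and are not replicates of each other. Over them Spearman's rank correlation of the folds was 0.869 between libraries 1 and 4, 0.967 between 2 and 3, and 0.310 to 0.385 across the sets. Away from starts the values across the sets were 0.483 to 0.534, and at starts they were 0.154 to 0.193. These are descriptions of the regions and carry no p-value.

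The region with the highest mean percentile was in Medag, an adipogenesis gene (chr5:149426165-149429886, 3.84 kb from the nearer gene end). Its folds were 744, 1699, 1699 and 576 in libraries 1 to 4, a mean of 1179 ± 604 (SD, n = 4). It had the highest fold of any deep region in all 4 libraries. Kdf1, a regulator of keratinocyte differentiation, followed with 600, 830, 904 and 419. The zinc finger gene Casz1 had 343, 964, 1113 and 341 at 28.3 kb from its end. The glycan enzyme genes St6galnac3, a sialyltransferase, and Ust, a uronyl sulfotransferase, had 343, 603, 726 and 260 and 337, 913, 1093 and 237.

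Next came the focal adhesion gene Tns1 with folds of 333, 1057, 1057 and 234. Vav2, a guanine nucleotide exchange factor gene, had 270, 807, 1048 and 217. Igsf9b, a synaptic adhesion gene, had 284, 1019, 1108 and 188. The bicarbonate transporter gene Slc4a5 had 375, 363, 363 and 252, and the chromatin protein gene Bahcc1 248, 1007, 910 and 212. In 9 of the 10 no RefSeq start lay within 1 kb, and Igsf9b had no entry. Libraries 2 and 3 had higher folds than 1 and 4 in 9 of the 10. Slc4a5 was the exception, with library 1 slightly above 2 and 3. Over all deep regions folds ran from 3.99 to 744 in library 1, 2.66 to 1699 in library 2, 2.35 to 1699 in library 3 and 3.98 to 576 in library 4.

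Regions near the 1 kb limit did not share a pattern. Just inside were Apod (1003 bp from a gene end, folds 84.3, 412, 363 and 77.6), Prr7 (1004 bp; 27.4, 5.02, 3.66 and 18.2) and Klhl23 (1008 bp; 24.0, 4.23, 3.02 and 11.4). Just outside were Phf21a (1000 bp; 19.96, 7.99, 6.04 and 16.8), Nat2 (999.5 bp; 36.4, 132, 90.4 and 23.6) and Snx13 (999 bp; 19.5, 4.07, 4.45 and 19.98). On each side 1 of the 3 was strong in libraries 2 and 3.

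The control libraries took out 106 deep regions. Deep regions were 34.6% of all reproducible regions before that filter and 35.5% after it, so other regions lost a larger part. There were 3715 deep regions before the filter, of which 102 overlapped a KO input peak and 4 a peak of KO ChIP library 2, and KO ChIP library 3 overlapped none. The 4, named after their values were seen, were in the neural transcription factor genes Nkx2-1, Insm1 and Hmx1 and the chromatin reader gene L3mbtl3, with folds of 3.45 to 27.4. Of all listed peaks on these chromosomes 36.9%, 42.8%, 42.4% and 34.2% were deep in OE libraries 1 to 4 (39.1% ± 4.21, SD, n = 4), 30.9% and 23.1% in the KO libraries (of 81 and 52 peaks) and 23.8% in the KO input (of 1602). By length of sequence, deep bodies held 942 Mb, gene ends 74.7 Mb and the stretches between genes 1410 Mb. A preference of peaks for deep bodies over their part of the sequence was not tested.

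Pooled over genes, the density of regions was lower farther from the start. Strand was known for 14513 of the genes, from the promoter table. Density in the deep body fell from 18 regions per Mb at 1 to 2 kb from the start through 8.37 at 2 to 5 kb and 4.10 at 10 to 20 kb to 1.93 beyond 200 kb. Most of the excess near the outer start was in regions at an alternative start (11.3 per Mb at 1 to 2 kb and 0.111 beyond 200 kb). Regions with no start nearby still fell, from 6.51 to 1.77 per Mb. Measured from the gene's other end the density was 5.6 per Mb at 1 to 2 kb, stayed between 3.93 and 4.64 from 2 to 200 kb and was 2.14 beyond. From that end, regions with no start nearby went from 5.31 to 1.85 per Mb, with 3.09 to 3.72 from 2 to 200 kb. The bins beyond 200 kb hold only genes longer than that. A fall within genes was not separated from a difference between genes of different length. Over all deep bodies (942 Mb) it was 3.83 per Mb, against 42.5 at gene ends and 2.40 between genes.

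**Figure D3:**
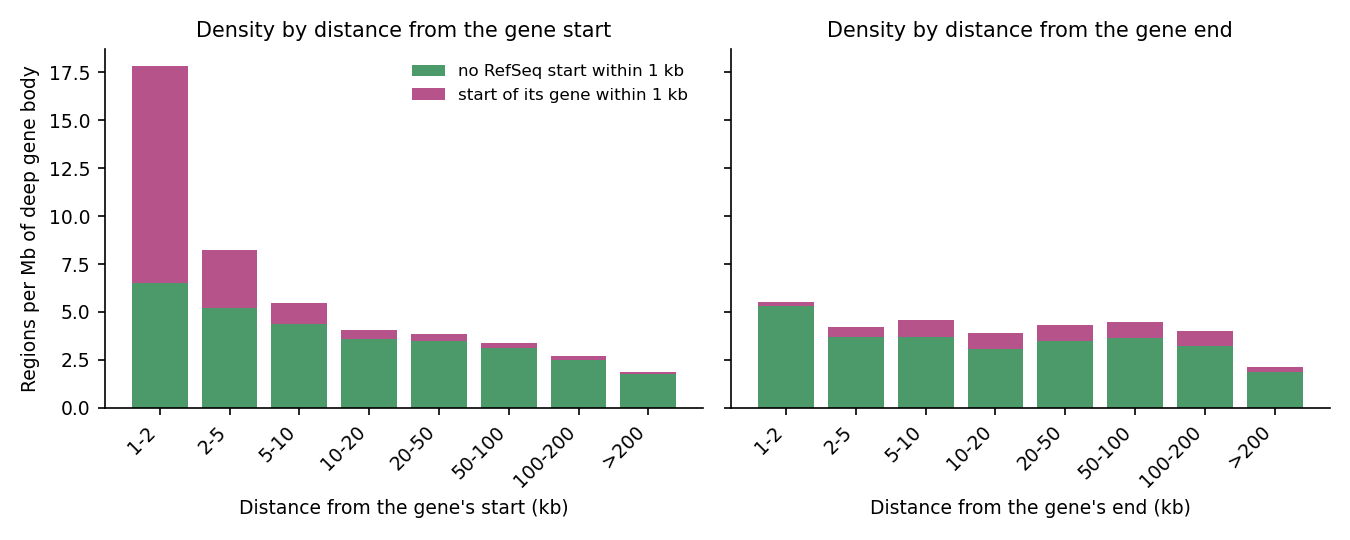
Deep regions per Mb of deep gene body (vertical axis) in bins of distance in kb from the gene's start (left) and from its other end (right), stacked by whether a RefSeq start of the gene lies within 1 kb. Regions at a start give 11.3 of the 18 per Mb in the first bin on the left, where regions at none fall from 6.51 to 1.77. In the right panel regions at a start give at most 0.849, and regions at none go from 5.31 to 1.85.

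Host genes were long. Of 18324 autosomal protein-coding genes with any deep body, 2648 (14.5%) held at least 1 deep region: 2009 held 1, 418 held 2 and 221 held 3 or more, 38 of them 5 or more. The median host was 72.2 kb long and the median other gene 18.2 kb. The share of hosts rose with the length of the deep body, from 4.12% up to 10 kb through 24.9% at 50 to 100 kb to 66.7% above 500 kb, while density fell from 9.51 to 1.73 per Mb. A host also had a gene-end region in 23.1% of cases, against 17.4% of other genes and 18.2% of all. Among genes 50 to 100 kb long the shares were 22.4% and 24.6%. Neighbouring regions of 1 gene were a median of 23.9 kb apart over 1038 pairs, and 30.3% of pairs were under 10 kb. A few regions lay in several genes at once: 37 regions did, with up to 24 genes for 1 region, where gene models share the same stretch.

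Gse1, which encodes a subunit of a histone-demethylase corepressor complex, held more regions than any other gene, 18 in 353 kb. Of these, 2 had a Gse1 start within 1 kb. The strongest, 47.9 kb from the annotated start, had folds of 220, 137, 202 and 251 in libraries 1 to 4. Across the 18 the median folds were 21.5, 38.4, 32.7 and 12.3, against 15.5, 23.9, 21.6 and 10.4 over all deep regions. Without library 4 the gene had 28.

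Then came Ptprg, a receptor tyrosine phosphatase gene, with 8 (13 without library 4). There were 7 in each of the spectrin gene Sptbn4, the chromatin reader gene Zmynd8, the elongation factor gene Aff1, the Rap regulator gene Sipa1l3, the SUMO ligase-like gene Zmiz1, the Hedgehog effector gene Gli2, the microtubule-binding protein gene Nav1 and Etl4. Their lengths ran from 91.3 kb (Sptbn4) to 900.3 kb (Etl4), so 7 regions meant 7.84 per 100 kb of deep body in Sptbn4 and 0.779 in Etl4. In Zmynd8 all 7 were of moderate strength, with mean percentiles of 54.5 to 77.8. In Nav1 the strongest, with folds of 195, 670, 685 and 159, ranked among the 15 strongest of all deep regions.

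**Figure D4:**
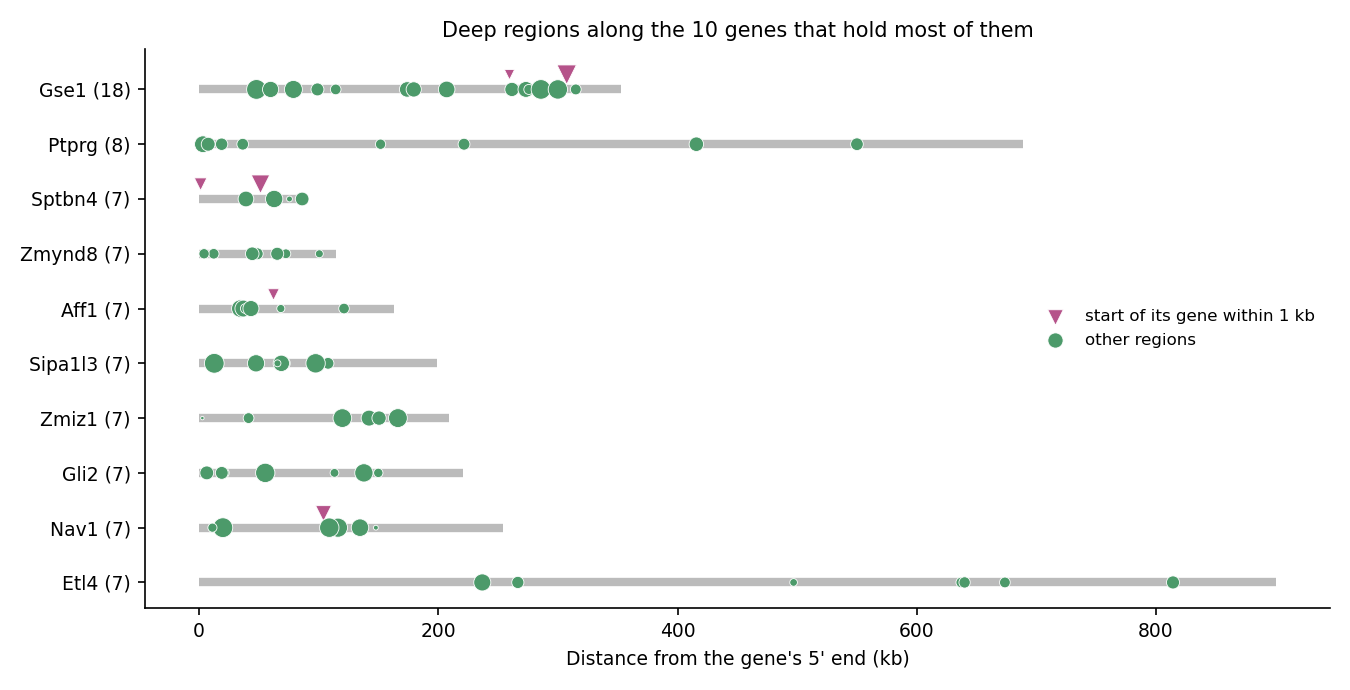
Positions of deep regions along the 10 genes that hold most, in kb from the 5′ end of each gene (grey bar, gene length). Larger symbols have a higher mean percentile of fold, triangles lie within 1 kb of a RefSeq start of the gene and circles are all others. Gse1 has 18 along its length, and Etl4 spreads 7 over 900.3 kb.

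Short genes could also be crowded. Among genes with at least 3 regions the densest was Lrtm2 with 19.8 per 100 kb of deep body, then the sialyltransferase gene St6galnac2 (17.6), Bri3 (16.6), the MEF2 family transcription factor gene Mef2d (14.2) and Fignl2 (11.4). The 3 regions of Lrtm2 are the same as those counted for Cacna2d4, which overlaps it. At the other extreme, the longest genes with no deep region were the receptor phosphatase gene Ptprd (2271 kb), Csmd1 (1643 kb), the catenin gene Ctnna3 (1574 kb), the guidance receptor gene Robo2 (1555 kb) and Lrrc4c (1314 kb). Ptprd and Csmd1 did have a region at a gene end.

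Gene lists were compared with the background share of 14.5% over all genes with a deep body, beside the length of their genes, since length and host share rose together. No list is called particular on this count. In all but 3 of the 20 lists given here the share of hosts was above 14.5%, and in most the genes were also longer than the median gene. Lists of shorter genes above it were bHLH (33.3%; median deep body 4.29 kb), neural crest (33.3%; 9.26 kb), FGF (34.8%; 13.9 kb) and pluripotency (21.7%; 12.7 kb). Over all genes the share was 4.12% up to 10 kb of deep body and 8.41% at 10 to 25 kb. Some genes of a list are far longer than its median, and a difference from genes of like length was not tested.

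Genes of neural crest and mesenchyme are those with which TWIST1 is most often linked. Of 24 neural crest specification genes 8 were hosts (33.3%; median deep body 9.26 kb; 6.31 regions per Mb). Sox9, a crest and cartilage factor, had folds of 101, 317, 281 and 77.2 in a region 1082 bp from an end of the gene. Sox5, its SoxD partner in cartilage, had 91.3, 264, 265 and 47.7 at 436 kb from the nearer end. The longest without a region was Mef2c. Of 24 genes for epithelial-mesenchymal transition and mesenchyme 11 were hosts (45.8%; 37.1 kb; 7.45 per Mb). Prrx2, a mesenchymal homeobox gene, had 426 and 255 in libraries 1 and 4 against 38.6 and 31.9 in 2 and 3, although no RefSeq start lay within 1 kb. The repressor gene Zeb2 had 45.9, 107, 102 and 27.2, and Cdh2 had none. Of 23 craniofacial and skeletal genes 6 were hosts (26.1%; 26.5 kb; 3.51 per Mb), led by Runx1, a skeletal and blood factor gene (19.5, 40.3, 35.4 and 12.3), with none in Meis2.

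Among 15 genes for bHLH partners and inhibitors 5 were hosts (33.3%; 4.29 kb; 8.31 per Mb). Bhlhe41, a bHLH repressor gene, had an even set of folds, 190, 126, 148 and 168, and Twist2, the close relative of Twist1, had 24.95, 117, 95.03 and 16.3 at 3.20 kb from an end of the gene. The E-protein gene Tcf3 had none. Of 20 Notch genes 8 were hosts (40.0%; 31.4 kb; 6.60 per Mb): the receptor gene Notch1 had 33.4, 74.1, 81.7 and 24.97, and Rbpj, the DNA-binding effector gene, 69.4 and 42.7 in libraries 1 and 4 against 10.0 and 11.6 in 2 and 3. The longest without was Numb.

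Of 20 Hedgehog genes 9 were hosts (45%; 43 kb), at 12.4 regions per Mb and 8.36 without Gli2. The strongest region of Gli2 had folds of 76.9, 144, 107 and 49.0, and Evc2, a cilium gene that modulates the pathway, had 24.5, 15.7, 10.5 and 27.7. Its relative Gli3, which is longer than Gli2, had none. Of 26 WNT genes 11 were hosts (42.3%; 40.7 kb; 9.28 per Mb), led by the non-canonical receptor genes Ror2 (46.9, 163, 133 and 31.8) and Ror1 (27.9, 78.0, 85.3 and 12.3), with none in the co-receptor gene Lrp6. Of 23 FGF genes 8 were hosts (34.8%; 13.9 kb; 6.06 per Mb), led by the receptor gene Fgfr2 (46.0, 110, 137 and 25.4) and Etv5, a transcriptional effector (44.9, 45.5, 67.1 and 20.4), with none in the adaptor gene Frs2. Of 28 BMP and TGF-beta genes 9 were hosts (32.1%; 67.0 kb; 6.75 per Mb), led by the co-receptor gene Tgfbr3 (51.4, 237, 233 and 41.3) and the ligand gene Bmp7 (17.97, 54.5, 56.6 and 17.7), with none in the receptor gene Bmpr1b.

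Of 26 corepressor genes 12 were hosts (46.2%; 60.4 kb), at 14.3 regions per Mb and 9.25 without Gse1. The longest without a region was Mta3. Of 24 chromatin remodeller and histone methyltransferase genes 9 were hosts (37.5%; 80.1 kb; 5.87 per Mb), led by Chd7 (38.9, 242, 197 and 29.1) and Chd9 (38.9, 117, 114 and 23.6), with none in Chd6.

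Adhesion and guidance genes had high shares of hosts and long genes. Of 34 axon guidance and ephrin genes 19 were hosts (55.9%; 153 kb; 3.88 per Mb). Their strongest regions were in the ephrin receptor gene Epha3 (157, 232, 238 and 102) and in Efna5, an ephrin ligand (92.0, 426, 361 and 73.6). Of 34 integrin and matrix genes 14 were hosts (41.2%; 112 kb; 4.33 per Mb), led by the laminin gene Lama3 (260, 687, 676 and 180) and Itga9 (54.4, 215, 183 and 41.6), with none in Lama2. Of 30 cadherin and catenin genes 13 were hosts (43.3%; 207 kb), but at 1.40 regions per Mb they lay under the 3.83 of all deep bodies. Cdh4 had 110, 621, 511 and 98.5 and Dchs1 16.97, 63.8, 42.4 and 12.3.

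Lists from other lineages set the scale. The very long synaptic and adhesion genes, kept for comparison, had the highest share of hosts, 26 of 34 (76.5%), with a median deep body of 1170 kb and 1.37 regions per Mb. Gpc5 (62.4, 301, 219 and 41.8) and Dpp6 (36.9, 116, 112 and 28.1) led them. Of 25 neural progenitor genes 9 were hosts (36.0%; 26.4 kb; 6.49 per Mb), with 6 regions in Msi2, an RNA-binding protein gene (123, 587, 467 and 97.6 at the strongest). Lhx2, a forebrain homeobox gene, had even folds of 40.4, 31.8, 28.3 and 35.0, and Nfia had none. Of 23 pluripotency genes 5 were hosts (21.7%; 12.7 kb; 8.47 per Mb): Tet2, a DNA demethylation enzyme gene, had 39.4, 95.4, 91.7 and 20.4 and the core factor gene Nanog 17.1, 54.4, 28.9 and 15.1, with none in Lin28b.

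The 3 lists under the background were mesoderm and heart (2 of 23, 8.70%), endoderm and liver (2 of 22, 9.09%) and cytosolic ribosomal proteins (1 of 24, 4.17%). Their regions were below the median deep region in libraries 2 and 3, and in libraries 1 and 4 on both sides of it: Gata2 had 13.97, 5.49, 5.09 and 13.2 and lay 24.5 bp from a start of its own, Gata4 had 19.96, 3.29, 3.50 and 6.36, Sox17 had 8.48, 3.76, 4.29 and 7.26, and Rpl19 9.98, 7.01, 5.97 and 7.72. The longest members without a region were Ryr2, Hnf4g and Rpl5. Median deep bodies were 14, 11 and 1.88 kb, so the first pair of lists had genes of about the length of the pluripotency list. Among all genes the share of hosts was 8.41% at 10 to 25 kb of deep body and 4.12% up to 10 kb. The 3 lists were thus near the share of genes of like length. Their densities were 1.57, 3.35 and 18.8 regions per Mb, the last from 1 region.

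**Figure D5:**
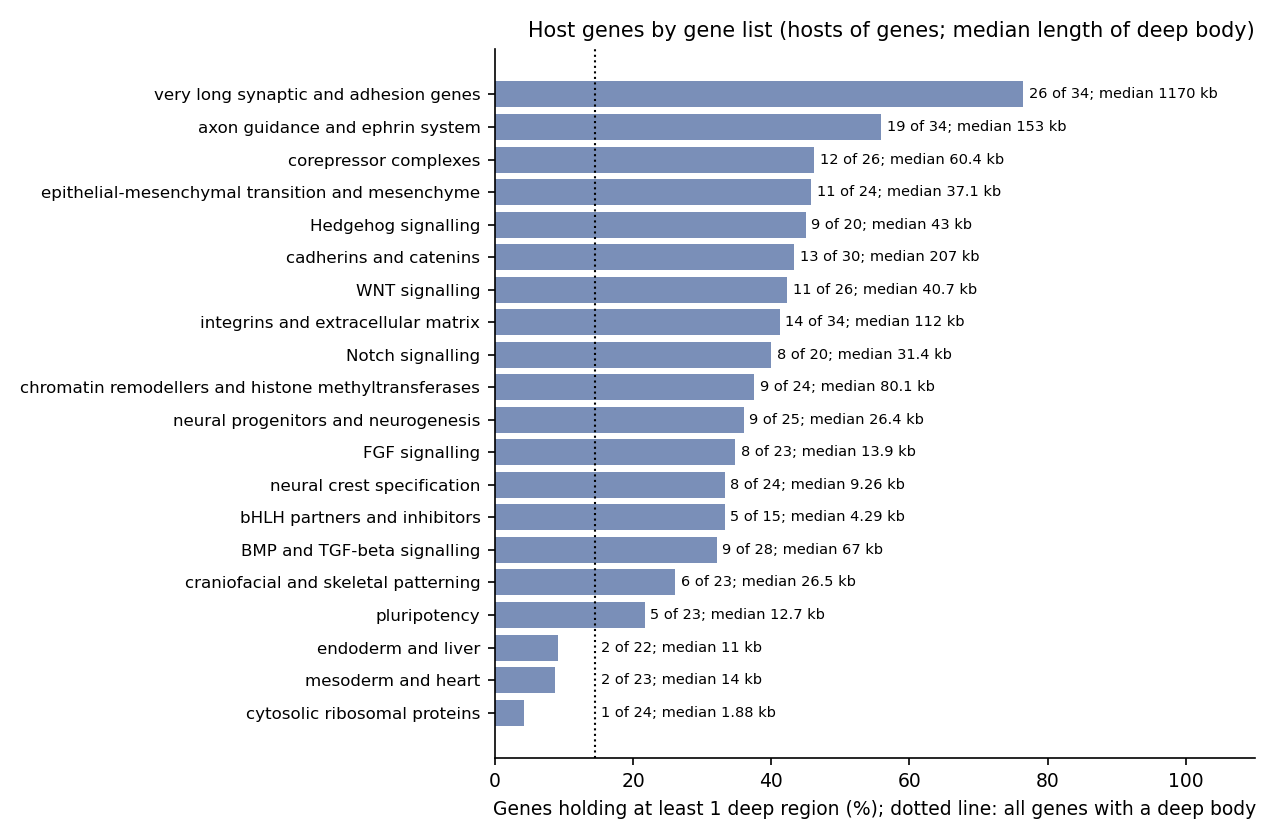
Share of genes in each of 20 lists that hold at least 1 deep region (bars, %), with the counts and the median deep length in kb beside each bar. The dotted line is the 14.5% of all 18324 genes with a deep body, and lists of long genes, such as the very long synaptic genes at 76.5%, reach the highest shares.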

How the data were processed

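TWIST1 ChIP-seq of 9 libraries was deposited, and peak lists of 7 were used. The submitters' processing notes name MACS2, BWA, Trimmomatic and Picard, with mm10 and GRCm38.p5 as builds; versions, settings and the control of the caller: not given in the sources used here. Peaks were called per library by the authors. Each deposited list gives a fold enrichment (a linear ratio), the −log10 p-value and q-value (every q at most 0.01) and a score, which was used only to check the layout. Folds of different libraries come from lists of different length and depth, so they stand side by side as descriptions and were ranked within a list.

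Python 3.11.15, numpy 2.4.6, pandas 2.3.3, scipy 1.17.1 and matplotlib 3.10.9 were used. Regions were built as stated above, with control peaks of 2 KO ChIP libraries and 1 KO input. From fold and p-value together the height (a whole number of fragments) and the background at each summit were solved (relative tolerance 0.0001) for every OE peak on chromosomes 1 to 19, and depth was judged from these because read totals are not given. Gene bodies, promoter sequences, strand, alternative starts and microRNAs came from RefSeq tables of GRCm38.p6 (main chromosomes with the same coordinates as mm10). The promoter table had an entry for 16456 of 20661 protein-coding genes (79.6%) and none on chromosome 18. Exons and introns were not analysed here, and the planned search of sequence around every summit was not run because no genome was used.

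Classes were compared by the median in each OE library and an exact sign-flip permutation test over the 4 library differences (16 flips, two-sided), with Benjamini-Hochberg adjustment over 6 comparisons. Such p-values reflect the spread between libraries and nothing else. On simulated lists over the 20661 genes, 100% of 2700 planted sites were recovered in their class, 300 of 300 control sites were removed and 100% of 3999 heights were recovered. The sites were planted in all 4 lists, with summits closer together than at most regions at a start (median 317 bp). Recovery and removal thus followed from how the lists were made and check the code only. They do not bear on the class of regions whose summits lie apart.

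The members, the 21 gene lists (532 genes, 518 with a deep body) and the tests were chosen with earlier results of these data known. Named genes are the hosts of the 10 strongest regions, the 10 genes with most regions, the 5 densest with at least 3, the 2 strongest hosts and the longest gene without a region in each list (1 list and 2 genes are not reported here), the 5 longest genes without a region and 3 regions on each side of the 1 kb limit. Genes named for a start, a spaced E-box pair, a microRNA or a KO peak were chosen after their values were seen. Alternatives covered the libraries required, the q-value limit, summit distance, list length, the control filter, the distance from gene ends and from starts, the ranking measure and each OE library left out.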

Additional observations from a re-analysis of the deposited data

Results flagged for a closer look

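Among 32 sets of 4 library values examined, 3 held a library that stood apart from the other 3, with a gap to the nearest, as a part of the whole range, above Dixon's critical value. Chance gives this in about 1 of 20 sets. The median percentile of fold was 77.5 in OE library 1 at gene-end regions, where the gap was 0.921 of the range. Deep regions at a start of their gene had a like value, 79.0 in library 1, with 0.902 of the range. At the strongest region of Slc4a5 the fold was 252 in library 4, below the other 3, with 0.906 of the range.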

How the results depend on the processing

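The number of deep regions was 3609 and became 6872 with 3 of 4 libraries required, 2364 at −log10 q of at least 10, 2217 with summits within 100 bp, 2181 with equal list lengths, and 3674 to 6478 with each OE library left out (highest without library 4). Host genes, 2648, became 4157 with 3 of 4 libraries, 1748 with close summits, 1682 with equal lengths, and 2674 to 3966 with a library left out. The share of regions that lay deep, 35.5%, became 41.2% with close summits, 42.8% with equal lengths, and 40.4%, 31.2% and 25.9% with 500 bp, 2 kb and 5 kb from gene ends. The share at a start, 13.6%, became 4.6% with close summits, 3.94% with equal lengths, 8.21% with 5 kb from gene ends and 8.23% within 250 bp of a start. Alternatives for starts, and for the class comparisons equal lengths, the rank among regions, kept control overlaps and 500 bp and 2 kb from gene ends, were chosen after seeing the data.

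Some mean differences turned sign. Deep minus gene-end percentile became −1.47 with close summits and −2.96 with equal lengths, and start minus none became 1.56 and 5.23. Deep minus gene-end width became −47.75 bp with 3 of 4 libraries, −107.5 bp with equal lengths (exact permutation p = 0.125) and −42.7 to 47.7 bp with a library left out (−17.5 without library 2). Start minus none width became −9.75 and −41.75 bp at 500 and 250 bp from a start, and kept its direction at 234 bp with equal lengths (exact permutation p = 0.125). With a library left out the percentile differences were 4.01 to 13.8 for deep minus gene end, 0.270 to 2.67 for deep minus intergenic and −13.9 to −1.62 for start minus none. Single library values under the alternatives that bear on them kept their own sign in 52 of 52, 45 of 52 and 60 of 60 cases for these 3, and for widths in 40 of 44, 42 of 44 and 47 of 52. Their size was less stable. At equal lengths, deep minus gene-end percentile became 2.82 and 2.76 in libraries 2 and 3 and −6.62 and −10.8 in 1 and 4. Start minus none became −3.18 and −3.25 in libraries 2 and 3 and 9.98 and 17.4 in 1 and 4. The percentiles were still ranks within the full lists. Only high percentiles were thus left in libraries 2 and 3, and wide differences there could not appear. The means at equal lengths, with their turns of sign, carry this limit. Without library 4, hosts rose from 6 to 10 of the craniofacial list, 9 to 14 of the chromatin list, 13 to 20 of the cadherin list, 5 to 8 of the pluripotency list and 9 to 14 of the neural progenitor list. No paired analysis was possible because no result was tested between the OE and KO libraries, which share numbers 2 and 3. Windows around every summit were not run. Read depth itself was not available, and a region had to be listed in library 4, the shortest list, to be counted.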

Other observations

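MicroRNA hairpins overlapped a few deep regions, 14 in all. Beside Mir6406 in Ntn1, one of them was Mir199b inside the dynamin gene Dnm1, on the plus strand, 317 bp from the position of a region with folds of 34.9, 78.7, 67.4 and 20.4 in OE libraries 1 to 4. The miR-199 family is known in mesenchymal tissue. Its RefSeq mature form at this locus is printed with the seed, bases 2 to 8, in capitals.
miR-199b-3p: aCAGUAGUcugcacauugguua

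Nearer to a position lay Mir7653 in Tlcd1 (21 bp), Mir761 in Nrd1 (29 bp) and the hairpin Gm23363 in the same region of Dnm1 (122 bp). Other hairpins lay in Gse1 (Mir7687, 2840 bp from the position), in the myosin gene Myh3 (Mir6923, 234 bp; folds 21.5, 81.7, 73.7 and 15.0) and in Tmem184b (Mir1943, 36 bp; 12.98, 12.2, 10.8 and 9.53). The Mir1943 hairpin holds the letters CACCUG and CAGGUG. These overlaps were picked after their values were seen and describe position only.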
